A study of Mus musculus with 12 samples.

Results

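The livers of Fra2hep mutant mice, in which a transgene for the AP-1 subunit Fra-2 had been switched on, were compared with those of littermate controls. The comparison covered every gene in 6 of the 12 RNA-seq libraries of the series, 3 mutants and 3 controls, taken by the strain and genotype in their titles. All 12 mice were adult C57BL/6 males. Doxycycline was withdrawn from mutants and controls alike at weaning, 3 weeks after birth, and this withdrawal starts the transgene in the mutants. Controls were kept in the same cage as their mutant littermates. Sampling was 2 months after induction by the titles and the design text. In the treatment field the 3 Fra2 controls also have 2 months, but the 3 Fra2 mutants have 9 months. If that label holds, time off doxycycline and genotype cannot be told apart. No source used here names the promoter that drives the transgene or the alleles that the controls carry. The other 6 libraries, 3 mutants and 3 controls of the strain Fra1hep for the related subunit Fra-1, had the same background, sex, withdrawal and labelled 2 months. They served as a second set of levels and shared 1 fit with the Fra2 libraries.

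AP-1 is a transcription factor assembled from a Fos-family and a Jun-family protein, and it binds a short palindromic DNA motif. Fra-2, encoded by Fosl2, is a Fos-family protein without the strong activation domain of c-Fos, and it acts as a dimer with a Jun protein. In liver, AP-1 is known for its part in regeneration, lipid handling, inflammation and tumour formation.

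The 6 Fra2 libraries held 17422736 to 19898288 counts each, and the whole series 16834041 to 20464807. After the filter on low counts, 14076 of 55421 genes were tested. Values are CPM, the count divided by the scaled library size and multiplied by 1000000. Per-library values are always given in the order of replicates 1, 2 and 3, and the labels give no pairing of mice by these numbers. On the first principal component of all 12 libraries (29.8% of the variance) the Fra2 mutants lay at 7.73, 24.7 and 10.3, and their controls at -18.5, -28.3 and -30.4, so the groups did not overlap. The label describes the tissue as mostly hepatocyte. The 20 hepatocyte markers summed to 169182 to 195871 CPM in the controls and 132443 to 137070 CPM in the mutants. The sums did not overlap, but the gap lay in albumin. Alb, the main plasma protein, stood at 99257, 75934 and 101178 CPM in the controls and 36030.2, 53364 and 43919 CPM in the mutants. The other 19 markers summed to 75446 to 94694 CPM in the controls and 83706 to 96412 CPM in the mutants, so without Alb the groups overlapped. The median log2 fold change of the 20 was 0.05, with 12 above 0 and 8 below, and 0 of the 20 passed by edgeR, whereas DESeq2 called 1 higher and 3 lower (unadjusted p under 0.05: 1 higher, 4 lower). Alb took 7.47% to 9.75% of counts in the controls and 3.54% to 5.37% in the mutants, with a log2 fold change of -1.05 ± 0.29 (SE) that did not pass the test (adjusted p = 0.133). In whole liver, fewer cells of a type and less RNA per cell cannot be told apart.

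Fosl2 (ENSMUSG00000029135.10, chromosome 5, 32135801 to 32157842, plus strand, GRCm38) was the check on the labels. It stood at 221, 861 and 297 counts in controls 1, 2 and 3, and at 6821, 7718 and 8101 counts in mutants 1, 2 and 3. In CPM these were 12.2, 48.1 and 16.03 against 398, 421 and 421. All mutants were alike and far above all controls, and control 2 was the highest control. Fosl2 rose with a log2 fold change of 4.02 ± 0.44 (SE) and an adjusted p of 0.00185 by edgeR's quasi-likelihood test with Benjamini-Hochberg adjustment, the test behind every adjusted p given here. Without control 2 the log2 fold change was 4.87. The 6 Fra1 libraries held Fosl2 at 7.49 to 11.4 CPM, below each of the Fra2 controls. Counts per gene do not separate transgene from endogenous transcripts.

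The other AP-1 subunits did not pass the test in either direction. Jund, the Jun partner with the highest level in the mutants, had 63.8, 67.3 and 46.8 CPM in the controls and 58.99, 56.4 and 71.03 CPM in the mutants (log2 fold change 0.07 ± 0.15, adjusted p = 0.919), and the groups overlapped. Jun, an immediate early gene, varied more among controls than between groups, with 6.35, 106 and 1.94 CPM in the controls and 12.1, 37.6 and 11.6 CPM in the mutants (adjusted p = 0.869). Junb had a log2 fold change of -0.42 ± 0.32 (adjusted p = 0.695) and Fos of 0.59 ± 0.61 (adjusted p = 0.789). Fosl1 was counted 11, 1 and 1 times in the controls and 5, 2 and 1 times in the mutants (adjusted p = 0.847), and it overlaps Ccdc85b on the other strand. Fosb was too low to be tested. Per kilobase of exon, the only scale on which levels of different genes are set side by side here, Fosl2 reached 41.2 to 43.5 CPM per kb in the mutants against 1.26 to 4.97 in the controls. Jund reached 33.8 to 42.6 CPM per kb in the mutants. On this scale Fosl2 went from below Jund in each control to about the level of Jund in the mutants. The scale uses annotated exon length, 9680 bases for Fosl2 and 1668 for Jund. The length of the transgene transcript is not known here, so the level of Fosl2 relative to Jund in the mutants is uncertain.

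**Figure D1:**
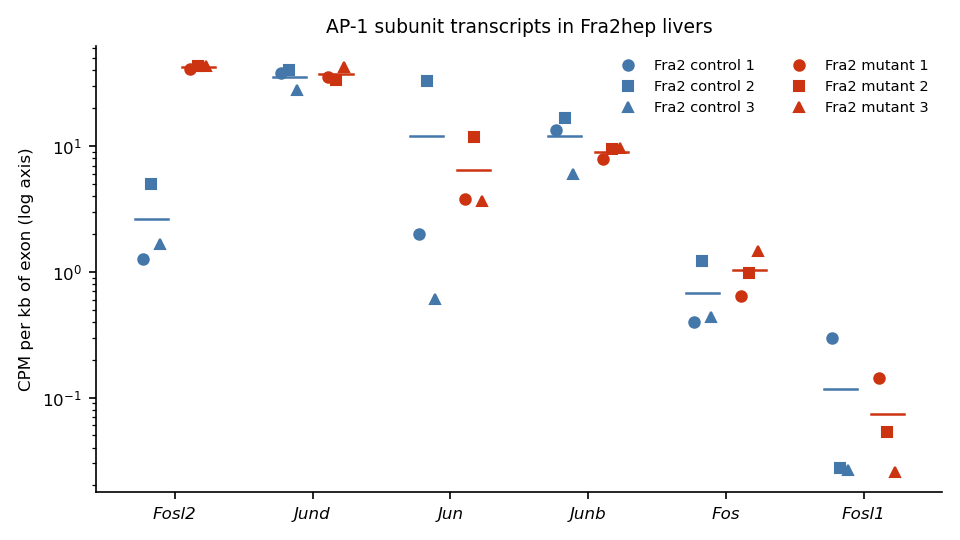
Level of 6 AP-1 subunit transcripts in each Fra2hep library, in CPM per kb of exon on a log axis; each symbol is 1 library and each line the mean of 3. Fosl2 stands at 41.2 to 43.5 in the mutants and 1.26 to 4.97 in the controls, while the 2 groups overlap for Jund, Jun, Junb, Fos and Fosl1.

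In all, 119 genes rose in Fra2 mutants (0.845% of the 14076 tested) and 31 fell (0.22%), together 150 genes or 1.07%. Unadjusted, 929 genes had p under 0.05 on the higher side (6.6%) and 684 on the lower side (4.86%). The median log2 fold change of all tested genes was -0.01, and 49.1% were above 0. Of the 119 higher genes 114 were protein-coding, 41 changed at least 4-fold and 35 changed less than 2-fold, with a median log2 fold change of 1.53. Of the 31 lower genes 25 were protein-coding, 13 changed at least 4-fold and 8 less than 2-fold, with a median of -1.57. In every called gene the 3 mutants lay wholly on one side of the 3 controls, as they did in 9.31% (above) and 8.17% (below) of all tested genes. Mutant 2 was the highest mutant in 72 of the 119 higher genes and in 11 of the 31 lower genes. The share over all tested genes was not taken. The number of calls depended on single libraries. Leaving out control 1 gave 84 higher and 29 lower calls, control 2 gave 64 and 12, and control 3 gave 46 and 13. Leaving out mutant 1 gave 82 and 13, mutant 2 gave 45 and 11, and mutant 3 gave 46 and 7. In all 6 of these fits 35 higher and 5 lower genes passed.

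For 22 of the 119 higher genes (18.5%) all 3 Fra2 controls lay above all 3 Fra1 controls, against 5.28% of all tested genes. Fosl2, Smpdl3b, Gas7, Lysmd2 and Tgfbr2 were among them. For 3 of the 119 (2.52%) the Fra2 controls lay below, against 4.82% of all genes. Among the 31 lower genes the controls lay above in 4 (12.9%) and below in 1.

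The AP-1 motif was searched, as a description, in RefSeq promoters of GRCm38.p6, each 250 bases before to 50 bases after a start site. The letters were TGANTCA, which read the same on both strands apart from the central base. Promoters were matched by symbol for 95 of the 119 higher genes, 22 of the 31 lower genes and 10660 of the tested genes. The motif was found for 12 of the 95 higher genes (12.6%), 1 of the 22 lower genes (4.55%) and 706 of all 10660 (6.62%). The cyclic AMP response element TGACGTCA, searched on both strands, was found for 2 of 95 higher, 1 of 22 lower and 3.39% of all genes. The antioxidant response element core TGACNNNGC, also on both strands, was found for 15 of 95 higher (15.8%), 2 of 22 lower (9.09%) and 16.7% of all genes, and it can overlap the AP-1 motif. Of the called genes holding TGANTCA, the 5 with the smallest adjusted p are shown. A link between the motif and the strength of a change was not tested. Binding itself was not measured. Each line gives the 250 bases before the start site, 5′ to 3′ on the gene's strand, with TGANTCA in capitals.
Srxn1: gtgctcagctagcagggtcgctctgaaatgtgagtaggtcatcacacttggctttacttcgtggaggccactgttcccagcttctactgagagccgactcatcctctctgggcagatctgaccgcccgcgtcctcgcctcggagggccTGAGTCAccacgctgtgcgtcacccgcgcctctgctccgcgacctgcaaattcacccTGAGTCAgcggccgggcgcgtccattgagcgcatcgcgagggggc
Entpd2: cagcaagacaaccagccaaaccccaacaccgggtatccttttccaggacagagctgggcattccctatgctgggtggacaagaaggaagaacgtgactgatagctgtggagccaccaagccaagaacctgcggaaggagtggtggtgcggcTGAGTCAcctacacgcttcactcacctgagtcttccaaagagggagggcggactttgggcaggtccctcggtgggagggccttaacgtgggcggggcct
Fam110c: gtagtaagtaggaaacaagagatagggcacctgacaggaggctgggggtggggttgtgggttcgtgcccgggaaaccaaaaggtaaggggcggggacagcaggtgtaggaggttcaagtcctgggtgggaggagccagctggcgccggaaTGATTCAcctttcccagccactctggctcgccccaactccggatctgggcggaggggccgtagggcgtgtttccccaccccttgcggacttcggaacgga
Pir: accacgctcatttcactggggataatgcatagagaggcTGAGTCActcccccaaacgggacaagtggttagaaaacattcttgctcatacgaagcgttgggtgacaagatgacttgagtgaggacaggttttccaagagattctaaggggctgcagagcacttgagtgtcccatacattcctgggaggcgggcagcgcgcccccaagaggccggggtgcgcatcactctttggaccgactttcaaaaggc
Slc10a2: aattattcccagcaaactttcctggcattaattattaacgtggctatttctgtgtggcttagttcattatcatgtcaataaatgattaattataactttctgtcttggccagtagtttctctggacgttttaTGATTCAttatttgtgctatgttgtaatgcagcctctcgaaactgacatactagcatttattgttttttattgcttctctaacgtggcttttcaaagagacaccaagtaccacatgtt

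Srxn1 (chr2:152105274-152105523, plus strand) holds the motif at 2 places, beginning 102 and 45 bases before the start site. Srxn1 encodes sulfiredoxin, which repairs oxidised peroxiredoxins, and had 33.4, 49.1 and 35.8 CPM in the controls and 118, 151 and 128 CPM in the mutants. It rose by 1.75 ± 0.17 (SE, log2; adjusted p = 0.0006903), and the groups were well apart. Entpd2 (chr2:25395624-25395873, plus strand), an ectonucleotidase that hydrolyses extracellular ATP, holds it 99 bases before the start and rose with 4.47, 3.96 and 2.65 CPM in the controls and 13.4, 19.5 and 15.2 CPM in the mutants (2.11 ± 0.22, adjusted p = 0.000996). Fam110c (chr12:31073718-31073967, plus strand) holds it 100 bases before the start and rose with 0.552, 0.837 and 0.324 CPM in the controls and 3.505, 6.38 and 4.62 CPM in the mutants (3.07 ± 0.34, adjusted p = 0.00177). Slc10a2 (chr8:5105288-5105537, minus strand) holds it 118 bases before the start. It encodes the apical sodium-dependent bile acid transporter, best known from ileum and bile ducts. It rose with 28.4, 16.2 and 13.6 CPM in the controls and 95.4, 119 and 65.5 CPM in the mutants (2.265 ± 0.28, adjusted p = 0.00352). Pir (chrX:164269181-164269430, plus strand), which encodes the iron-binding nuclear protein pirin, is the 1 lower gene with the motif, 212 bases before the start. It fell with 20.3, 23.2 and 28.5 CPM in the controls and 5.32, 7.36 and 4.93 CPM in the mutants (-2.03 ± 0.24, adjusted p = 0.00228). These 5 genes passed in all 6 fits that left out a library.

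Many of the largest rises were in genes with little transcript in control liver. Tmc5, a member of the transmembrane channel-like family, had 0.1104, 0.0558 and 0.05398 CPM in the controls and 2.57, 7.31 and 4.05 CPM in the mutants (5.86 ± 1.03, adjusted p = 0.0232). Lrtm2, a leucine-rich repeat membrane protein, had 0.331, 1.51 and 0.162 CPM in the controls and 24.3, 25.3 and 21.96 CPM in the mutants (5.15 ± 0.60, adjusted p = 0.00228), and it overlaps Cacna2d4 on the other strand. In both genes every mutant exceeded every control by more than 10-fold. Arhgap22, a GTPase-activating protein for Rac, had 0.387, 0.726 and 0.05398 CPM in the controls and 8.64, 12.2 and 8.41 CPM in the mutants (4.63 ± 0.52, adjusted p = 0.00185). Syt14, of the synaptotagmin family, rose at low level, with 0.0552, 0.0558 and 0.108 CPM in the controls and 1.58, 1.31 and 1.04 CPM in the mutants (4.03 ± 0.48, adjusted p = 0.00228). Cabp2, a calcium-binding protein, had 0.276, 0.279 and 0.05398 CPM in the controls and 4.26, 7.58 and 4.57 CPM in the mutants (4.71 ± 0.94, adjusted p = 0.0426). Control 2 held the highest control level of Lrtm2 and Arhgap22, and without it their log2 fold changes were 6.56 and 5.43. Of the 6 fits that each left out a library, Syt14, Lrtm2 and Arhgap22 passed in all. Tmc5 lost its call in each fit but that without mutant 1 (adjusted p up to 0.117) and Cabp2 in each of the 6 fits (up to 0.152).

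**Figure D2:**
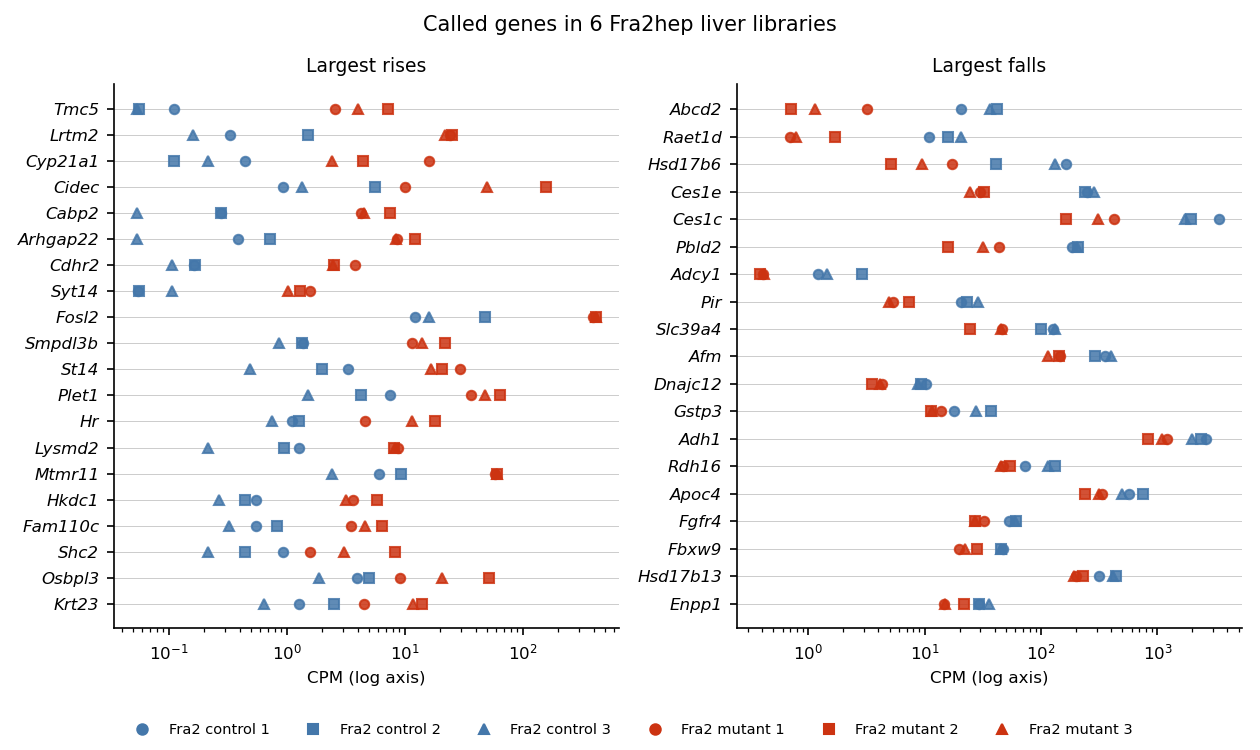
CPM on log axes of the protein-coding genes with the largest rises (left, 20 genes) and falls (right, 19 genes) in Fra2 mutants; each symbol is 1 library. In each gene the 3 mutants lie on one side of the 3 controls, and Cidec spreads from 10.05 to 159 CPM among them.

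Gas7, a growth-arrest-specific protein that binds actin, had the smallest adjusted p of all genes, 8.01e-05. It stood at 11.4, 16.3 and 9.66 CPM in the controls and 76.9, 80.4 and 86.8 CPM in the mutants, a rise of 2.71 ± 0.18 with little spread among mutants. Mtmr11, a myotubularin-related protein, was as even among the mutants, with 6.02, 9.38 and 2.43 CPM in the controls and 58.4, 60.8 and 61.3 CPM in the mutants (3.34 ± 0.35, adjusted p = 0.00127). Lysmd2 reached 8.76, 8.07 and 8.26 CPM in the mutants from 1.27, 0.949 and 0.216 in the controls (3.36 ± 0.46, adjusted p = 0.00499). Gas7, Mtmr11 and Lysmd2 passed in all 6 fits, as did Hkdc1. Hkdc1, a hexokinase-like enzyme, rose from 0.552, 0.447 and 0.2699 to 3.68, 5.84 and 3.22 CPM (3.31 ± 0.44, adjusted p = 0.004195) and was the 1 gene called among 26 tested of glycolysis and the hexokinases, whose median was -0.07. Hr, a histone demethylase and nuclear receptor corepressor, rose to 4.61, 17.9 and 11.6 CPM from 1.104, 1.28 and 0.756 (3.44 ± 0.50, adjusted p = 0.00844), and lost its call without control 3 (adjusted p = 0.0523). Shc2, a signalling adaptor, had 0.939, 0.447 and 0.216 CPM in the controls and 1.58, 8.24 and 3.06 CPM in the mutants (2.995 ± 0.60, adjusted p = 0.04198). Its log2 fold change was 3.67 without control 1 and 2.11 without mutant 2, and its call was lost without control 2, control 3, mutant 2 or mutant 3 (adjusted p up to 0.161).

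Smpdl3b, a membrane-anchored phosphodiesterase related to acid sphingomyelinase, had 1.38, 1.34 and 0.864 CPM in the controls and 11.6, 21.98 and 14.1 CPM in the mutants (3.73 ± 0.30, adjusted p = 0.000414) and passed in all 6 fits. Sptlc2, a subunit of serine palmitoyltransferase, which starts sphingolipid synthesis, had 19.7, 17.5 and 16.1 CPM in the controls and 42.3, 64.7 and 42.3 CPM in the mutants (1.48 ± 0.28, adjusted p = 0.03498). They were the 2 genes called among 25 sphingolipid genes (8%, against 1.07% of all genes), whose median was 0.01. Smpd3, a neutral sphingomyelinase, stood at 3.87, 2.62 and 2.81 against 12.97, 27.9 and 20.98 CPM without passing (log2 fold change 2.73 ± 0.59, adjusted p = 0.0608). Acsl4, which activates polyunsaturated fatty acids, rose with 71.8, 41.3 and 59.2 CPM in the controls and 97.4, 127 and 115 CPM in the mutants (0.98 ± 0.20, adjusted p = 0.0454) and was the 1 called of 19 fatty acid uptake and binding genes. Osbpl3, an oxysterol-binding-protein relative, had 3.92, 4.97 and 1.89 CPM in the controls and 9.17, 51.4 and 20.8 CPM in the mutants (2.92 ± 0.57, adjusted p = 0.0425). Mutant 2 held its highest level, and without that mutant the value was 2.06 (adjusted p = 0.0961). Leaving out libraries, Sptlc2 lost its call in each of the 6 fits (adjusted p up to 0.1396), Acsl4 in each fit but that without control 1 (up to 0.163) and Osbpl3 in each fit but that without mutant 1 (up to 0.1399).

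Of 22 tested PPAR-gamma and lipid droplet genes 1 rose and 1 fell (9.09% called, against 1.07% of all genes), with a list median of 0.11. Cidec, a protein that fuses lipid droplets and enlarges them, had 0.939, 5.64 and 1.35 CPM in the controls and 10.05, 159 and 50.1 CPM in the mutants (4.79 ± 0.96, adjusted p = 0.0447). The mutants differed among themselves by more than 10-fold, with mutant 2 highest, although all lay above all controls. The value was 5.99 without control 2 and 3.51 without mutant 2, and the call was lost in each fit but that without mutant 1 (adjusted p up to 0.162). Hsd17b13, a lipid droplet enzyme of hepatocytes, fell with 315, 440.0 and 417 CPM in the controls and 199, 229.7 and 191 CPM in the mutants (-0.92 ± 0.15, adjusted p = 0.0165), a call lost without control 2, control 3, mutant 1 or mutant 3 (adjusted p up to 0.0845). Pparg itself, the nuclear receptor that drives Cidec in fat, stood at 13.3, 10.9 and 9.501 in the controls and 4.09, 5.51 and 3.58 CPM in the mutants, a log2 fold change of -1.36 ± 0.30 that did not pass (adjusted p = 0.0629).

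Of 19 tested brush border and membrane protease genes 3 rose and none fell (15.8% called, against 1.07% of all genes), with a median of 0.10. St14, the membrane serine protease matriptase, had 3.31, 2.01 and 0.486 CPM in the controls and 29.5, 20.9 and 16.8 CPM in the mutants (3.53 ± 0.59, adjusted p = 0.0183). Tmprss2, another membrane serine protease, had 6.85, 7.59 and 3.78 CPM in the controls and 21.6, 27.8 and 27.2 CPM in the mutants (2.07 ± 0.27, adjusted p = 0.004195). Cdhr2, a cadherin that links microvilli, had 0.166, 0.167 and 0.108 CPM in the controls and 3.797, 2.51 and 2.49 CPM in the mutants (4.26 ± 0.83, adjusted p = 0.0387). Its partner Cdhr5, at 84.8, 91.5 and 81.7 against 131, 127 and 121 CPM, did not pass (adjusted p = 0.0693). Plet1, a surface protein of epithelial progenitors, rose with 7.57, 4.24 and 1.51 CPM in the controls and 36.6, 64.6 and 47.8 CPM in the mutants (3.48 ± 0.45, adjusted p = 0.004899). Krt23, a type I keratin, had 1.27, 2.51 and 0.648 CPM in the controls and 4.498, 14.1 and 11.9 CPM in the mutants (2.78 ± 0.52, adjusted p = 0.0297) and was the 1 called of 16 cholangiocyte and progenitor markers. Sox9, a defining biliary marker, did not pass and was at 15.5, 7.98 and 5.99 against 6.07, 7.36 and 6.23 CPM (adjusted p = 0.688). The sum of all 20 listed genes, of which 16 were tested, was 254.5 to 476 CPM in controls and 331 to 483 CPM in mutants. The groups thus overlapped. Without control 1, St14 had 4.16 and Plet1 4.11, and without control 2 Krt23 had 3.40. Tmprss2 and Plet1 passed in all 6 fits. St14 was lost without control 2, mutant 1 or mutant 2 (adjusted p up to 0.0893), Krt23 without control 1, control 3, mutant 2 or mutant 3 (up to 0.122) and Cdhr2 in each of the 6 fits (up to 0.151).

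Tiam2, an exchange factor for Rac, had 9.11, 14.5 and 10.8 CPM in the controls and 51.9, 56.2 and 49.2 CPM in the mutants (2.19 ± 0.19, adjusted p = 0.0006404). Tgfbr2, the type II receptor for TGF-beta, had 33.8, 25.5 and 28.3 CPM in the controls and 86.2, 132 and 114 CPM in the mutants (1.92 ± 0.18, adjusted p = 0.0006903). Kcp, a secreted regulator of BMP signalling, had 19.3, 9.66 and 6.53 CPM in the controls and 99.5, 61.6 and 65.4 CPM in the mutants (2.68 ± 0.34, adjusted p = 0.00356). The groups were apart in each of these genes, and all passed in the 6 fits. Among 30 listed actin and tropomyosin genes 23 had a log2 fold change above 0, against 49.1% of all genes. An unadjusted p under 0.05 on the higher side was found for 7, against 6.6% of all genes. Tpm1, an actin-binding tropomyosin, was the 1 called of the 30. It had 33.4, 36.7 and 29.6 CPM in the controls and 53.7, 62.6 and 61.7 CPM in the mutants (0.84 ± 0.12, adjusted p = 0.00648) and also passed in all 6. Cttn, the actin-branching regulator cortactin, rose by 1.03 ± 0.12 (adjusted p = 0.00228). S100a10, the partner of annexin A2, rose with 66.6, 128 and 87.2 CPM in the controls and 257, 268 and 278 CPM in the mutants (1.51 ± 0.26, adjusted p = 0.0183) and was the 1 called of 17 annexins and S100 proteins. Tnfrsf1a, the main TNF receptor, rose with 75.7, 80.96 and 87.1 CPM in the controls and 134, 168 and 152 CPM in the mutants (0.898 ± 0.14, adjusted p = 0.0106). It was the 1 called of 30 listed cytokines, chemokines and TNF receptors. The cytokine Clcf1, outside that list, rose by 2.16 ± 0.42 (adjusted p = 0.0387). Its call was lost in each fit but that without control 3 (adjusted p up to 0.128). S100a10 lost its call without control 3, mutant 2 or mutant 3 (adjusted p up to 0.0867) and Tnfrsf1a without mutant 2 or mutant 3 (up to 0.0515). Tiam2, Tgfbr2, Kcp, Cttn and Clcf1 were picked after their values were seen.

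The NRF2 antioxidant response protects cells from oxidants and electrophiles. Of its 18 tested genes 2 rose and none fell (11.1% called, against 1.07% of all genes), with a median of 0.11. They were Srxn1, given above with its promoter, and Ugdh, which makes UDP-glucuronic acid, with 198, 214 and 195 CPM in the controls and 367, 287 and 350.4 CPM in the mutants (0.73 ± 0.12, adjusted p = 0.0165). Pgd, of the pentose phosphate pathway, did not pass at 45.1, 67.8 and 70.7 against 116, 145 and 99.2 CPM (adjusted p = 0.0809). G6pdx of the same pathway had a log2 fold change of -1.12 ± 0.34 (adjusted p = 0.188). Mafk, a small Maf protein that pairs with NRF2 and with Fos proteins, rose with 13.97, 19.4 and 11.98 CPM in the controls and 27.8, 41.5 and 38.3 CPM in the mutants (1.25 ± 0.20, adjusted p = 0.0161) and was the 1 called of 23 Maf, ATF and BATF partners. Gsta2, a glutathione transferase, rose with 9.77, 12.7 and 7.94 CPM in the controls and 21.2, 27.8 and 25.4 CPM in the mutants (1.29 ± 0.18, adjusted p = 0.00501). It passed in all 6 fits and was the 1 called of 19 listed glutathione transferases. Its near-identical copy Gsta1 makes the counts of Gsta2 uncertain. Gstp3, a glutathione transferase outside that list, fell (-1.18 ± 0.25, adjusted p = 0.0479). Ugdh lost its call without control 1, control 3, mutant 1 or mutant 3 (adjusted p up to 0.0793) and Mafk without control 1, control 3, mutant 2 or mutant 3 (up to 0.0691). Mcm2, a subunit of the replicative helicase, rose with 3.92, 3.07 and 2.267 CPM in the controls and 9.64, 12.2 and 11.6 CPM in the mutants (1.85 ± 0.22, adjusted p = 0.00234) and passed in all 6 fits. It was the 1 called of 19 replication licensing genes, and 0 of 28 cell cycle genes passed by either tool. Of those 28, 2 had an unadjusted p under 0.05 on the higher side and 1 on the lower side.

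Abcd2, a peroxisomal importer of very long-chain fatty acids, had 20.4, 42.2 and 36.2 CPM in the controls and 3.21, 0.709 and 1.14 CPM in the mutants (-4.297 ± 0.55, adjusted p = 0.004195). Every mutant was far below every control. Without mutant 1, its highest mutant, the log2 fold change was -5.14. Abcd2 was the 1 called of 15 peroxisomal transport and biogenesis genes, and of 9 tested female-biased genes, to which it also belongs. Ces1e and Ces1c, carboxylesterases that hydrolyse esters and some drugs, were the 2 genes lower among 15 carboxylesterases, whose median was 0.00. They made up 13.3% of the list, against 1.07% of all genes called in either direction. Ces1e had 247, 238 and 284 CPM in the controls and 29.8, 32.5 and 24.7 CPM in the mutants (-3.14 ± 0.37, adjusted p = 0.00228). Ces1c, which is secreted into plasma, had 3383, 1949.9 and 1709 CPM in the controls and 422, 163 and 308 CPM in the mutants (-2.98 ± 0.56, adjusted p = 0.0317). Other members differed in sign without passing: Ces1b had -4.18 ± 0.87 (adjusted p = 0.0522), Ces1f -2.96 ± 1.07 (0.301) and Ces2c 1.86 ± 0.43 (0.0819). The Ces1 genes are close paralogs, so their counts are uncertain. Abcd2 and Ces1e passed in all 6 fits, and Ces1c lost its call in each of the 6 fits (adjusted p up to 0.131).

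Of 22 tested genes of steroid metabolism 1 rose and 2 fell (13.6% called, against 1.07% of all genes). Cyp21a1, the steroid 21-hydroxylase of the adrenal, rose with 0.442, 0.112 and 0.216 CPM in the controls and 16.1, 4.42 and 2.44 CPM in the mutants (4.86 ± 0.86, adjusted p = 0.0247). Mutant 1 was the highest by a wide margin, and the value was 3.70 without it and 5.48 without control 1. Cyp21a1 overlaps Tnxa on the other strand, and its call was lost without control 1, control 2 or control 3 (adjusted p up to 0.124). Hsd17b6, which turns androgen metabolites back to active forms, fell with 165, 41.04 and 132 CPM in the controls and 17.2, 5.13 and 9.45 CPM in the mutants (-3.42 ± 0.57, adjusted p = 0.0183), a call lost without control 1, control 3, mutant 2 or mutant 3 (up to 0.0974). Of 19 tested male-biased genes 1 rose, the fatty acid hydroxylase Cyp4a12b, and the median was -0.32. Slco1a1, a male-biased organic anion transporter, did not pass at 1311, 96.8 and 689 against 158, 140.4 and 150.4 CPM (-2.22 ± 0.97, adjusted p = 0.414). Mup7, a major urinary protein, was at 2714, 1.17 and 0.864 against 176, 19.5 and 11.3 CPM (adjusted p = 0.576). Control 1 stood apart in this list, with a sum of 25283 CPM against 6801 and 8536 in the other controls.

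The alcohol dehydrogenase Adh1, the retinol dehydrogenase Rdh16, the plasma proteins Apoc4 and Afm and the receptor Fgfr4 fell. Adh1, the main hepatic alcohol dehydrogenase, which also oxidises retinol, had 2604, 2359 and 1989.8 CPM in the controls and 1199, 832 and 1101 CPM in the mutants (-1.15 ± 0.18, adjusted p = 0.0109). Rdh16, a retinol and steroid dehydrogenase, had 72.2, 131 and 115 CPM in the controls and 47.1, 54.4 and 45.1 CPM in the mutants (-1.12 ± 0.21, adjusted p = 0.03199). Among 30 tested genes of a retinoid list, drawn up after the calls were seen, 4 rose and 2 fell. The 4 include the retinol dehydrogenases Dhrs9 and Rdh10 and the corepressor Hr. Apoc4, an apolipoprotein, had 569, 756 and 494 CPM in the controls and 335, 239 and 315 CPM in the mutants (-1.03 ± 0.20, adjusted p = 0.0302), and Afm, a plasma carrier of vitamin E, had 354, 292 and 403 CPM in the controls and 144, 142 and 114 CPM in the mutants (-1.39 ± 0.21, adjusted p = 0.00852). The groups were apart in these 4 genes. Fgfr4, the hepatocyte receptor through which ileal FGF15 restrains bile acid synthesis, fell with 53.5, 60.9 and 59.7 CPM in the controls and 32.6, 27.3 and 27.1 CPM in the mutants (-1.001 ± 0.14, adjusted p = 0.00658) and passed in all 6 fits. It was the 1 called of 18 bile acid synthesis genes. Cyp7a1, the rate-limiting enzyme of that pathway, did not pass at 158, 124 and 85.3 against 65.5, 82.1 and 67.9 CPM (adjusted p = 0.587). Adh1 lost its call without mutant 2 or mutant 3 (adjusted p up to 0.0535) and Afm without mutant 3 (adjusted p = 0.0569). Rdh16 lost it in each fit but that without control 1 (up to 0.136) and Apoc4 in each fit but that without control 3 (up to 0.129). Adh1 overlaps Gm16559 on the other strand.

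Other genes with large falls have varied roles. Raet1d, a ligand of the NK cell receptor NKG2D, had 10.99, 15.8 and 20.6 CPM in the controls and 0.701, 1.69 and 0.779 CPM in the mutants (-3.89 ± 0.56, adjusted p = 0.00796), and it overlaps Raet1e on the same strand. Pbld2 had 186, 209 and 204 CPM in the controls and 43.7, 15.7 and 31.6 CPM in the mutants (-2.72 ± 0.43, adjusted p = 0.0163). Slc39a4, a zinc importer, had 126, 99.3 and 131 CPM in the controls and 46.4, 24.6 and 45.6 CPM in the mutants (-1.61 ± 0.33, adjusted p = 0.0447) and was the 1 called of 21 zinc, metallothionein and iron genes. Adcy1, an adenylyl cyclase, fell at low level (-2.19 ± 0.41, adjusted p = 0.02901), as did the co-chaperone Dnajc12 (-1.26 ± 0.23, 0.0247). Gstp3 (-1.18 ± 0.25, 0.0479), Fbxw9 (-0.97 ± 0.18, 0.02901) and Enpp1, which makes pyrophosphate outside the cell (-0.88 ± 0.17, 0.0405), fell by less. Raet1d lost its call without mutant 3 (adjusted p = 0.0561) and Pbld2 without control 2, control 3, mutant 2 or mutant 3 (up to 0.0743). Slc39a4 and Dnajc12 lost it in each of the 6 fits (up to 0.1498 and 0.125). Adcy1 and Gstp3 lost it in each fit but that without control 1 (up to 0.129 and 0.184), and Fbxw9 and Enpp1 in each fit but that without mutant 2 (up to 0.124 and 0.167).

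Among non-coding features and pseudogenes the largest rises were Gm26747 (3.53 ± 0.60, adjusted p = 0.0183), Gm5340 (2.67 ± 0.50, 0.02901) and H2-T-ps (2.54 ± 0.53, 0.0474). The largest falls were Gm36264 (-3.71 ± 0.52, 0.00648), Gm4956 (-3.05 ± 0.52, 0.0207) and Gm6135 (-2.32 ± 0.39, 0.0165). All stayed at or below 39.9 CPM in each Fra2 library. Gm26747 had 4.88 without control 1 and H2-T-ps 3.45 without control 2. Of the 6, Gm36264 alone kept its call whichever library was left out. H2-T-ps lost its call in each fit but that without control 2 (adjusted p up to 0.165), Gm4956 without control 3, mutant 1, mutant 2 or mutant 3 (up to 0.122), Gm5340 without control 1, control 3, mutant 2 or mutant 3 (up to 0.117), Gm6135 without control 2, mutant 2 or mutant 3 (up to 0.0917) and Gm26747 without control 2, control 3, mutant 2 or mutant 3 (up to 0.0852).

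Of the 56 gene lists, 32 had no called member. ER chaperones and folding enzymes, which help secretory proteins mature, were the list with the most members at an unadjusted p under 0.05. None of the 23 passed the test by edgeR (5 did by DESeq2, all higher), while 22 had a log2 fold change above 0 and the median was 0.50, against -0.01 for all genes. In 16 of the 23 all mutants lay above all controls, against 9.31% of all genes, and 16 had an unadjusted p under 0.05 on the higher side, against 6.6%. P4hb, a protein disulfide isomerase, was nearest to the threshold with 1415, 1168 and 1551 CPM in the controls and 3378, 2903 and 2271 CPM in the mutants (1.05 ± 0.24, adjusted p = 0.0653). The chaperone Hspa5 (BiP) had 719, 501 and 809.8 CPM in the controls and 1359.5, 1050.2 and 1053 CPM in the mutants (adjusted p = 0.319), and Sdf2l1 had 27.2, 23.1 and 28.1 CPM in the controls and 78.9, 41.2 and 53.3 CPM in the mutants (adjusted p = 0.161). Summed over the list, the controls stood at 6974, 5687 and 7850 CPM and the mutants at 11866, 10169 and 9375 CPM. The Fra1 libraries overlapped both, at 7115 to 10021 CPM in controls and 7073 to 10146 CPM in mutants. In 6 of the 23 genes all Fra2 controls lay below all Fra1 controls, against 4.82% of all genes. Of 19 genes of the integrated stress response and amino acid synthesis 0 passed by either tool, and those with an unadjusted p under 0.05 were 2, both lower.

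**Figure D3:**
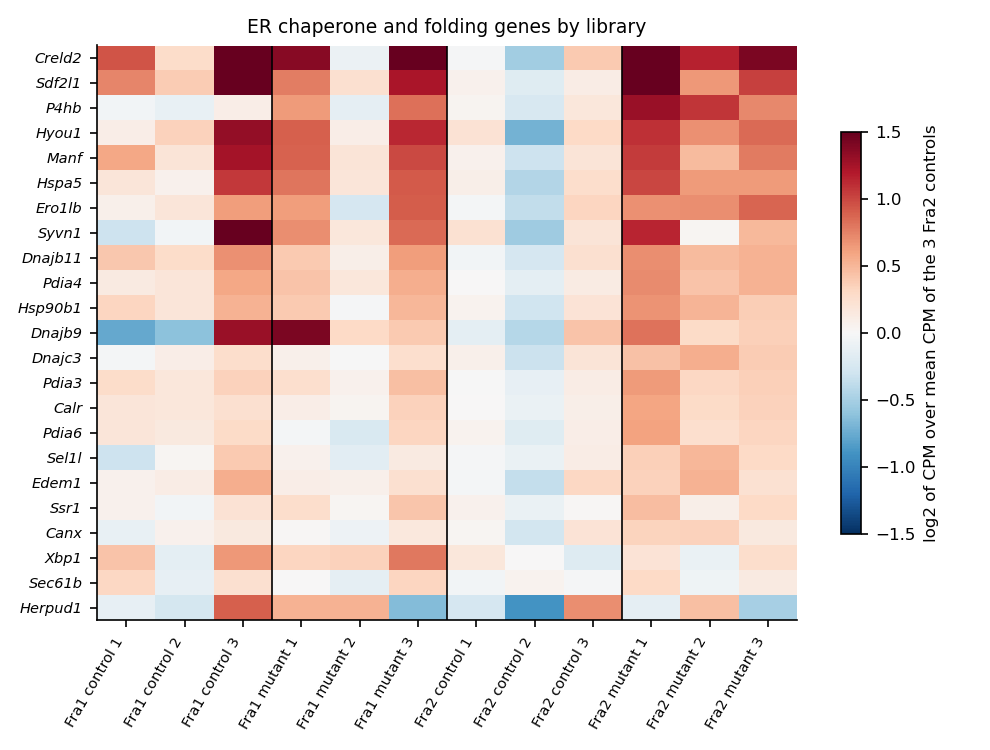
ER chaperone and folding genes (rows, ordered by log2 fold change in Fra2 mutants) in all 12 libraries (columns), coloured by log2 of CPM over the mean CPM of the 3 Fra2 controls, with colours ending at 1.5 on either side. The Fra2 mutants are red in most rows, Fra2 control 2 is the lowest control in 21 of the 23, and Fra1 control 3 reaches levels like those of the mutants for genes such as Hspa5, at 1414 CPM.

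Most genes of cholesterol synthesis and other SREBP2 targets lay below 0. None of the 25 passed by edgeR (1 did by DESeq2, lower), and the median was -0.32. A log2 fold change above 0 was found for 4, against 49.1% of all genes. On the lower side 6 had an unadjusted p under 0.05, against 4.86% of all genes. Dhcr7, the last enzyme of the pathway, had 131, 192 and 202 CPM in the controls and 123, 109.6 and 112 CPM in the mutants (adjusted p = 0.148). Insig1, which holds back SREBP processing, had 301, 469 and 268 CPM in the controls and 217, 209 and 175 CPM in the mutants (adjusted p = 0.231). In both genes all mutants lay below all controls. Circadian clock genes (0 of 18, median -0.07) and immediate early genes (0 of 14, median -0.14) had no called member by edgeR or DESeq2, and 0 of these 32 genes had an unadjusted p under 0.05. Among 24 nuclear-encoded respiratory chain genes 0 passed by either tool and 0 had an unadjusted p under 0.05, with a median of -0.09. Yet 21 of these 24 lay below 0 and 3 above, so this list leaned to the lower side as well.

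**Figure D4:**
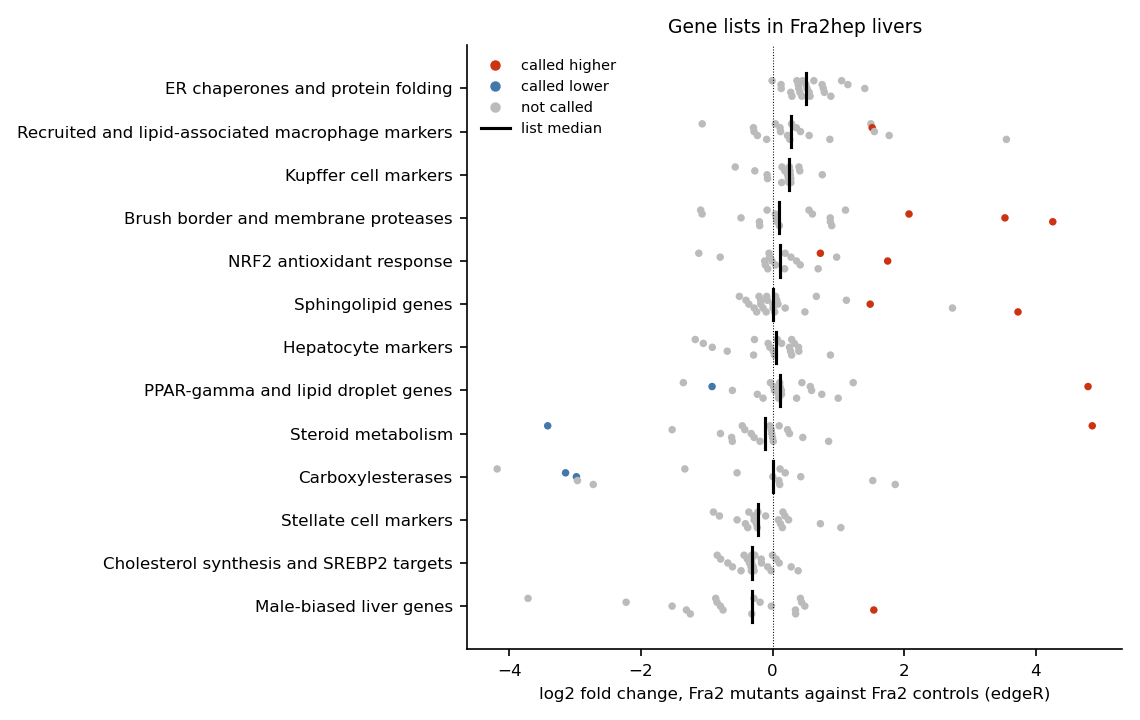
Log2 fold changes of the members of 13 gene lists in Fra2 mutants against Fra2 controls; each dot is a gene, coloured where it was called, and black lines are list medians. The ER chaperone median lies at 0.50 with no called gene and the cholesterol synthesis median at -0.32 where again no gene is coloured; 1 steroid metabolism gene is not drawn.

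Markers of other cell types moved with the groups in part. Of 20 recruited and lipid-associated macrophage markers 1 rose, the pore-forming protein Mpeg1, with 95.2, 61.6 and 85.9 CPM in the controls and 256, 218 and 218 CPM in the mutants (1.51 ± 0.25, adjusted p = 0.0165). It lost its call in each fit but that without control 1 (adjusted p up to 0.0679). The list, Mpeg1 included, summed to 561, 298 and 296 CPM in the controls and 590, 691 and 600 CPM in the mutants, without overlap. With Mpeg1 taken out of the sums the groups overlap, since control 1 then lies above mutants 1 and 3. Atp6v0d2, a proton pump subunit of macrophages and osteoclasts, was at 4.03, 3.29 and 2.75 against 19.4, 80.7 and 18.3 CPM and did not pass (3.55 ± 0.85, adjusted p = 0.0987). Kupffer cell markers (0 of 18) summed to 810 to 1533 CPM against 1280 to 1608 CPM, with overlap. The 15 neutrophil markers, of which 6 were tested and 0 passed, summed to 9.04 to 17.6 CPM against 18.7 to 23.1 CPM. Stellate cell markers (0 of 20) summed to 604 to 681 CPM in controls and 494 to 580 CPM in mutants, without overlap. In 6 of these 20 all Fra2 controls lay above all Fra1 controls, against 5.28% of all genes. Lymphocyte (0 of 22) and sinusoidal endothelial markers (0 of 23) overlapped in sum. Among the recruited and lipid-associated macrophage markers DESeq2 called 3 higher and 1 lower, and 4 higher and 1 lower had an unadjusted p under 0.05. DESeq2 called 1 Kupffer cell marker, higher, and 0 neutrophil, stellate cell, lymphocyte or endothelial markers. In these 5 lists an unadjusted p under 0.05 was found for 1 higher and 1 lower Kupffer cell gene and 1 higher and 3 lower stellate cell genes. It was also found for 2 lower endothelial genes and 0 neutrophil or lymphocyte genes. Of exocrine pancreas, fat and muscle genes 9 were at 0 in all Fra2 libraries, Prss1, Prss2 and Ckm among them. The part of these shifts in the calls above was not tested.

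The Fra2 effect was set against the Fra1 effect by their difference in the same fit. The difference passed for 5 genes (0.0355% of those tested), and 889 (6.32%) had an unadjusted p under 0.05. Cyp4a12b is a male-biased fatty acid omega-hydroxylase. It stood at 90.1, 70.9 and 106 CPM in Fra2 controls and 248, 208 and 319 in Fra2 mutants, a rise of 1.54 ± 0.22 (adjusted p = 0.00648) that passed in all 6 fits. In the Fra1 strain it was at 88.8, 129 and 131 CPM in controls and at 74.3, 53.7 and 70.2 CPM in mutants, where the groups did not overlap. The log2 difference of the effects, Fra2 minus Fra1, was 2.35 ± 0.31 (SE, adjusted p = 0.0342). Its close copy Cyp4a12a makes this count uncertain.

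In Smpdl3b, Gas7, Tpm1 and Dop1b the Fra2 effect was the smaller one. Smpdl3b went from 0.131, 0.0983 and 0.161 to 49.8, 32.4 and 31.5 CPM in the Fra1 strain, and the difference was -4.40 ± 0.54 (SE, adjusted p = 0.0323). The Fra2 controls already stood at 1.38, 1.34 and 0.864 CPM, above every Fra1 control, and the Fra2 mutants ended below every Fra1 mutant. Gas7 went from 4.38, 5.16 and 5.06 to 117, 117 and 143 CPM in the Fra1 strain, with a difference of -1.98 ± 0.24 (adjusted p = 0.0323) and the same order of groups. Tpm1 had like control levels in both strains, 33.96, 35.4 and 30.1 CPM in the Fra1 and 33.4, 36.7 and 29.6 CPM in the Fra2 controls. Its mutants reached 140.0, 152 and 125 CPM in Fra1 and 53.7, 62.6 and 61.7 CPM in Fra2 livers (difference -1.23 ± 0.17, adjusted p = 0.0394). Dop1b, a protein of endosomal traffic, went from 25.3, 28.1 and 25.6 to 76.2, 80.1 and 84.1 CPM in the Fra1 strain and was at 42.7, 34.6 and 49.7 and 56.2, 53.7 and 47.7 CPM in Fra2 controls and mutants, where it did not pass (0.31 ± 0.13, adjusted p = 0.375). Its difference was -1.29 ± 0.18 (adjusted p = 0.0431). Leaving out control 1, mutant 1 or mutant 3 gave 0 genes with a called difference, mutant 2 gave 1, control 2 gave 4 and control 3 gave 13. Of the falls, Raet1d was at 4.95 to 14.6 CPM in Fra1 controls and 4.74 to 14.2 CPM in Fra1 mutants, and Ces1c at 1001 to 2791 and 1271 to 4414 CPM. Neither difference between strains passed (adjusted p = 0.218 and 0.316).

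**Figure D5:**
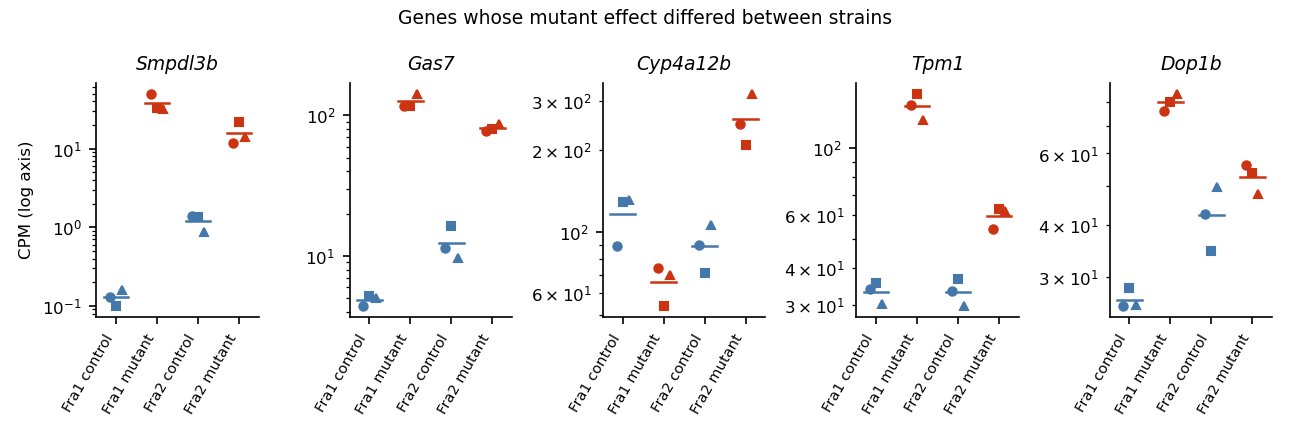
CPM (log axes, each scaled to its gene) of the 5 genes whose mutant effect differed between strains, in the 4 groups of 3 libraries; symbols are libraries (circle 1, square 2, triangle 3) and lines group means. Cyp4a12b rises to 208 to 319 CPM in Fra2 mutants and lies at 53.7 to 74.3 CPM in Fra1 mutants, while the other 4 genes are higher in Fra1 than in Fra2 mutants.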

How the data were processed

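Polyadenylated liver RNA was sequenced with a stranded dUTP kit, per the labels' protocols. The authors deposited whole-number counts per gene, not normalized. The submitters' processing notes name DESeq2 1.22.2, STAR 2.6.1a, bedtools 2.27.1, RSEM and the build GRCm38 (mm10), with neither order nor role. The sources used here do not give the counting tool, its annotation and strand setting, or its treatment of multi-mapping reads, so counts of paralogs and overlapping genes are uncertain. PCR copies cannot be told from separate molecules.

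Groups came from the titles. By chi-square tests, none of the 6 pairs of Fra2 libraries of the same group lay within sampling noise of each other. Coordinates are from GENCODE M21 on GRCm38. In R 4.3.3, edgeR 4.0.16 kept genes by filterByExpr, scaled libraries by TMM and fitted 4 group means to all 12 libraries by a robust quasi-likelihood fit, which gives all groups a common estimate of spread. Tests were two-sided, called at Benjamini-Hochberg adjusted p under 0.05 over the 14076 genes tested. Standard errors come from the test statistic, and log2 fold changes are given as value ± SE. CPM use TMM-scaled sizes.

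Members and lists were chosen with earlier results of these data known. Named are Fosl1 and Fosl2, the 20 top rises and 20 top falls by fold among called protein-coding genes whose groups do not overlap, at 1 CPM or more in the higher group, 3 non-coding features per direction, up to 5 called members per list and up to 10 genes for the difference. A gene that the rule selects is not reported here. Alternatives were RLE factors, no scaling, DESeq2 1.42.0, no filter, 1 CPM in 3 libraries, the Fra2 libraries alone, the replicate number as a block and each Fra2 library left out. The scripts were tested on simulated data.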

Additional observations from a re-analysis of the deposited data

Results flagged for a closer look

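For 5 genes the effect in Fra2 mutants differed from that in Fra1 mutants by the test of the difference itself, with the levels given in the report. The log2 difference, Fra2 effect minus Fra1 effect, was -4.40 for Smpdl3b, -1.98 for Gas7, -1.23 for Tpm1, -1.29 for Dop1b and 2.35 for Cyp4a12b, the 1 gene of the 5 whose mean was higher in Fra2 mutants and lower in Fra1 mutants than in their controls. Each kept its sign in the 6 fits that left out a Fra2 library. Smpdl3b, Gas7 and Dop1b passed in 2 of these fits, Cyp4a12b and Tpm1 in 1, with adjusted p in the others up to 0.107 for Smpdl3b, Gas7 and Cyp4a12b, 0.155 for Tpm1 and 0.179 for Dop1b. For Smpdl3b, Gas7 and Dop1b the 3 Fra2 controls also lay above the 3 Fra1 controls, and the part of the control levels in the difference was not tested.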

How the results depend on the processing

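The counts of called genes depended on the tool and on single libraries. Against 119 higher, 31 lower and 5 with a differing effect by edgeR, DESeq2 called 315, 133 and 71, all of edgeR's calls among them. The 6 Fra2 libraries fitted alone gave 71 higher and 19 lower, of which 60 and 15 were shared with the fit of 12. Without a filter on low counts 9 differences passed. Leaving out control 1, 2 or 3 or mutant 1, 2 or 3 gave 84, 64, 46, 82, 45 and 46 higher genes, 29, 12, 13, 13, 11 and 7 lower genes, and 0, 4, 13, 0, 1 and 0 differing genes. The labels give no pairing of the mice by replicate number. Same-numbered mutants and controls had correlations of -0.121 to 0.0558 in their deviations from group means, other pairs -0.119 to 0.107. With 3 mice a group these correlations cannot decide whether mice were paired. With the replicate number as a block 78 genes were higher, 20 lower and 5 differed, with 62, 12 and 1 shared. RLE factors, no scaling factor and a minimum of 1 CPM in 3 libraries kept all 3 counts within 1.5 times. None of the 60 named genes called changed sign in any alternative that tested it. Of the 60 named genes called, 22 passed without any 1 library and 38 did not. Groups of 3 mice limit the precision of every value, and mutants labelled 9 months cannot be separated from an effect of time.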

Other observations

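A further 5 groups were drawn up after the called genes had been seen, so their counts describe and support nothing. Of 11 ESCRT-III subunits, which cut membrane necks in endosomes and in cell division, 3 rose and none fell. Chmp4b had 41.9, 51.5 and 51.01 CPM in the controls and 86.2, 91.03 and 109.6 CPM in the mutants (0.99 ± 0.18, adjusted p = 0.0247), Chmp2b rose by 0.74 ± 0.14 (0.02901) and Chmp1a by 0.52 ± 0.10 (0.02901). The list median was 0.16. Of 17 plakins and desmosome genes, which tie filaments to junctions, 3 rose: periplakin Ppl with 10.7, 13.3 and 11.7 CPM in the controls and 65.3, 72.6 and 47.2 CPM in the mutants (2.37 ± 0.23, 0.0006903), plectin Plec (0.81 ± 0.11, 0.004195) and Ahnak (0.85 ± 0.16, 0.0275). Of 19 Hippo pathway genes the paired coactivators Yap1, with 85.8, 68.3 and 88.9 CPM in the controls and 118, 129 and 114 CPM in the mutants (0.57 ± 0.12, 0.0474), and Wwtr1 (TAZ), with 18.1, 21.1 and 19.4 CPM in the controls and 28.6, 37.03 and 32.4 CPM in the mutants (0.74 ± 0.13, 0.0228), rose, each by less than 2-fold.

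Of 30 tested genes listed under retinoid transport and metabolism 4 rose and 2 fell, with a median of -0.10. The 4 include Hr, described above as a histone demethylase and nuclear receptor corepressor. Dhrs9, a retinol dehydrogenase, rose with 4.804, 3.74 and 4.48 CPM in the controls and 19.2, 27.9 and 26.9 CPM in the mutants (2.503 ± 0.37, adjusted p = 0.00903), Rdh10 by 0.51 ± 0.11 (0.0451) and Stra6l, a receptor for retinol-binding protein in liver, by 0.69 ± 0.14 (0.0474), beside Hr, Adh1 and Rdh16 of the report. Of 17 genes of sulfur amino acid catabolism 2 fell. Cdo1, which commits cysteine to taurine, had 1938, 2137 and 1754 CPM in the controls and 903, 1198 and 1101 CPM in the mutants (-0.86 ± 0.17, 0.0387), and Ethe1, a sulfide-oxidising enzyme of mitochondria, also fell (-0.74 ± 0.14, 0.0296). Elmo1 (1.83 ± 0.36, 0.0387) and Pak1 (1.35 ± 0.28, 0.0447), both linked to Rac, and the cytokine Clcf1 (2.16 ± 0.42, 0.0387) also rose. Ppl and Plec passed in all 6 fits that left out a library. Chmp2b, Chmp1a, Yap1, Stra6l, Cdo1 and Pak1 passed in none of them (adjusted p up to 0.125, 0.128, 0.178, 0.193, 0.139 and 0.163). Chmp4b, Wwtr1 and Rdh10 lost their calls in each fit but that without mutant 1 (up to 0.106, 0.1104 and 0.178), Elmo1 in each fit but that without control 1 (up to 0.155) and Clcf1 in each fit but that without control 3 (up to 0.128). Ahnak lost its call without control 2, control 3, mutant 2 or mutant 3 (up to 0.125), Ethe1 without control 2, control 3, mutant 1 or mutant 2 (up to 0.133) and Dhrs9 without control 2 or control 3 (up to 0.0523).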
